A study of Mus musculus with 9 samples.

Results

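The genes described here are 10 members of the Notch signalling pathway: the receptors Notch1, Notch2 and Notch3, the ligand Jag1, the target genes Hey1, Hey2, Heyl, Hes1 and Hes5, and the feedback inhibitor Nrarp. They were chosen by symbol, as probe sets annotated with exactly 1 gene, and all 10 were found among 19938 genes tested. Each of the 10 had 1 probe set, so no choice between probe sets was needed. RNA of cells from mouse back skin at postnatal day 4 was hybridised to Affymetrix Mouse Gene 1.0 ST arrays, 9 in all and each from its own preparation. Skin-derived precursor cells (SKPs), on 4 arrays numbered as replicates 3, 4, 5 and 6, grow in culture as floating spheres from dissociated skin and were collected as colonies at primary passage. The other group, on 5 arrays numbered 2, 16, 17, 18 and 20, came from the Sox2:EGFP line, whose green fluorescence reports Sox2. These sorted cells were taken by flow sorting as EGFP-positive and CD34-negative cells straight from the dissociated skin into RNAlater. For the SKPs no mouse strain is stated. Culture, the sort and the cells chosen all differ between the groups and cannot be told apart.

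Notch receptors sit in the cell membrane and are activated by ligands of the Jagged and Delta families on neighbouring cells. Binding leads to cleavage first by an ADAM protease and then by gamma-secretase, and the released intracellular domain enters the nucleus, where it joins the DNA-binding protein RBPJ and a Mastermind-like coactivator to switch on Hes and Hey genes, which encode transcriptional repressors, and Nrarp, which dampens the signal. In skin the pathway is known for its part in differentiation of the epidermis and the hair follicle, and Notch3 and Heyl are well known from vascular smooth muscle and pericytes.

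SKPs had lower levels of most of these pathway members. By limma with Benjamini-Hochberg adjustment over all genes, 8 of the 10 were lower, 0 were higher and 2, Hes1 and Hes5, were not called; over all genes 37.0% were called in either direction. At an unadjusted p under 0.05, 9 were lower and 0 higher, and with array weights 1 member, Hes5, was called higher. Of all genes tested, 16.9% were called lower and 20.2% higher. In the same 8 members every SKP array lay below every sorted array, which held for 15.5% of all genes (34.0% were separated in either direction), and 6 were lower by at least 2-fold, against 6.25% of all genes. The median log2 fold change (SKP minus sorted) was -1.50 over the 10 members and 0.07 over all genes. Members were picked with earlier results of these data known, so these counts describe them and are not a test of the pathway.

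**Figure D1:**
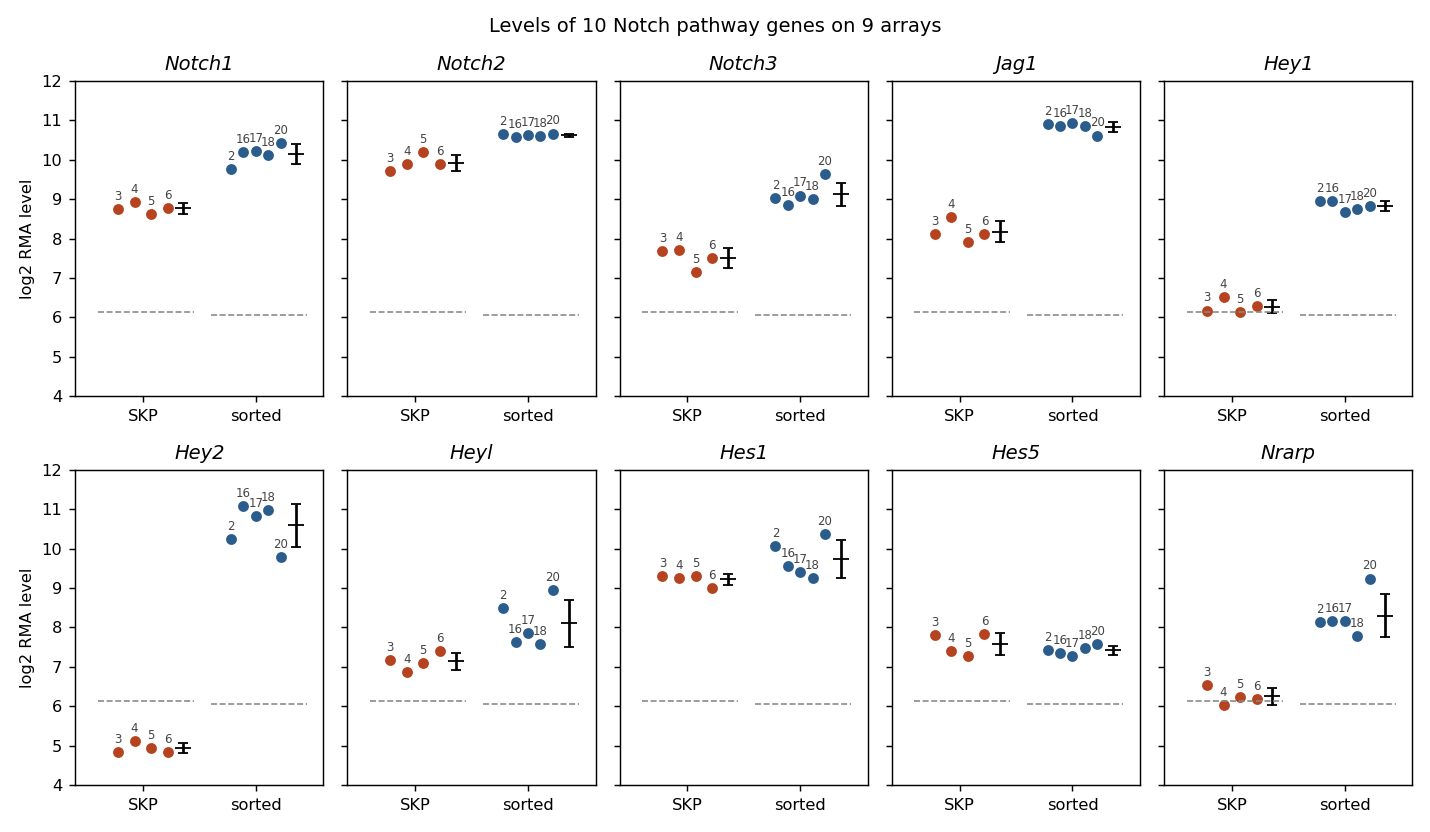
Log2 RMA level (y axis) of each of the 10 genes on the 4 SKP arrays (red, left) and the 5 sorted arrays (blue, right), with 1 point per array labelled by its replicate number and the group mean and SD in black. Dashed lines mark the mean over a group's arrays of the 95th percentile of 1194 olfactory and vomeronasal receptor genes (6.14 in SKPs, 6.06 in sorted cells). Hey2 lies below that line on all 4 SKP arrays, and the groups overlap for Hes1 and Hes5.

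Levels are log2 RMA values, on which 1 unit is a 2-fold difference. The 1194 olfactory and vomeronasal receptor genes on the array, which skin is not expected to express, served as a guide to background. Their 95th percentile was 6.02 to 6.23 on the SKP arrays and 5.89 to 6.17 on the sorted arrays. Probes differ in how brightly they hybridise, so levels of different genes are not ranked here, and where 1 gene's value is subtracted from another's within an array, only the change of that difference between the groups is read.

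Sox2, on which the cells were sorted, was at 5.78 to 6.41 on the SKP arrays and at 8.24 to 9.25 on the sorted arrays. Cd34, selected against, was at 11.14 to 11.62 on the SKP arrays, at 10.19 and 10.27 in the sorted preparations 2 and 20, and at 7.31 to 7.82 in preparations 16, 17 and 18. Sorted replicates 2 and 20 therefore go against the label for this gene, and the results below are given with and without them where they differ. The mean of 16 dermal papilla genes, a list that includes Sox2 itself, was 7.28 to 7.41 on the SKP arrays. It was 11.31 to 11.47 on sorted replicates 16, 17 and 18, 10.38 on replicate 2 and 9.88 on replicate 20. The sorted arrays also carried genes of other skin cells: the mean of 14 epidermal keratinocyte genes was 6.67 to 6.93 on the SKP arrays and 9.35 to 11.63 on the sorted arrays, with the highest value on replicate 20. In bulk samples such as these, fewer cells of a type and less RNA per cell cannot be told apart.

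All 3 receptors were lower in SKPs, by unequal amounts. Notch1, a receptor of many tissues that includes the epidermis and the hair matrix, was at 8.74, 8.94, 8.62 and 8.77 on SKP replicates 3, 4, 5 and 6, and at 9.77, 10.19, 10.22, 10.13 and 10.44 on sorted replicates 2, 16, 17, 18 and 20. The groups did not overlap, and the lowest sorted value was replicate 2. Its mean was 8.77 ± 0.13 in SKPs (SD, n = 4) and 10.15 ± 0.24 in sorted cells (SD, n = 5), a 2.61-fold lower level in SKPs (log2 fold change -1.38, SE 0.13, limma adjusted p = 2.26e-05).

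Notch2, which is broadly expressed, was at 9.72, 9.89, 10.20 and 9.89 on the SKP arrays, against 10.64, 10.58, 10.63, 10.61 and 10.67 on the sorted arrays. The sorted arrays were almost level (SD 0.03), and SKP replicate 5 came closest to them, 0.38 below the lowest. This receptor was 1.62-fold lower in SKPs (log2 fold change -0.70, SE 0.10, limma adjusted p = 0.000269), at 9.92 ± 0.20 in SKPs and 10.63 ± 0.03 in sorted cells.

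Notch3 was at 7.69, 7.71, 7.15 and 7.50 on the SKP arrays, and at 9.03, 8.85, 9.09, 9.01 and 9.63 on the sorted arrays. The groups were separated by 1.14, with SKP replicate 5 lowest and sorted replicate 20 highest. It was 3.06-fold lower in SKPs, at 7.51 ± 0.26 against 9.12 ± 0.30 (log2 fold change -1.61, SE 0.17, limma adjusted p = 5.14e-05).

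Over all 9 arrays the difference in Notch2 was smaller than in Notch1 and Notch3. Within each array the log2 value of one paralogue was subtracted from that of the other, and the SKP mean of this difference was set against the sorted mean by an exact two-sided permutation test over all 126 assignments of the arrays, for 7 pairs in all. Notch3 minus Notch2 averaged -2.41 ± 0.45 in SKPs and -1.50 ± 0.27 in sorted cells, a difference of -0.91 (exact p = 0.00794, the smallest this design allows, adjusted p = 0.0185 over the 7 pairs). For Notch1 minus Notch2 it was -0.68 (exact p = 0.0159, adjusted p = 0.0222). For Notch3 minus Notch1 the difference was within the spread (-0.23, exact p = 0.167). Without sorted replicates 2 and 20 neither comparison with Notch2 passed (-0.80 for Notch3, exact permutation adjusted p = 0.08, and -0.73 for Notch1, adjusted p = 0.05). For Notch1 the exact permutation p was 0.0286, the smallest that the 35 assignments left allow. Its loss of the call therefore does not show that the difference depends on those replicates.

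Pericyte and smooth muscle genes, with which Notch3 is often found, were also lower in SKPs. Of 15 measured, a list that includes Notch3 itself, 10 were lower and 1 higher, against 16.9% and 20.2% of all genes. Their median log2 fold change was -2.38. The list mean was 7.26 to 7.54 on the SKP arrays and 9.04 to 9.49 on the sorted arrays. Myh11, the smooth muscle myosin, led the lower members (log2 fold change -5.24, limma adjusted p = 2.03e-08), and Pdgfrb, a receptor of pericytes and fibroblasts, was the member called higher (1.35, limma adjusted p = 0.000421). In SKPs Rgs5 and Myocd were at or under the 95th percentile of the background genes on every array. The part of these cells in the Notch3 result was not tested.

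Jag1, a transmembrane ligand of the Jagged family, was clearly lower in SKPs. It was at 8.12, 8.55, 7.91 and 8.12 on the SKP arrays, against 10.90, 10.86, 10.93, 10.87 and 10.62 on the sorted arrays. The lowest sorted array, replicate 20, still lay 2.06 above the highest SKP array, replicate 4. The mean was 8.17 ± 0.27 in SKPs and 10.83 ± 0.12 in sorted cells, a 6.32-fold lower level (log2 fold change -2.66, SE 0.13, limma adjusted p = 3.16e-07). Among all genes tested 0.968% had a lower log2 fold change.

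Of the 4 other canonical ligands, 2 were lower in SKPs and 0 higher (2 and 0 at an unadjusted p under 0.05). Over all genes 16.9% were called lower and 20.2% higher. Jag2, the second Jagged ligand, was at 6.52, 5.86, 6.28 and 6.27 on the SKP arrays and at 7.13, 6.92, 6.83, 7.10 and 8.15 on the sorted arrays, which was 1.99-fold lower in SKPs (limma adjusted p = 0.0113). Its SKP values were close to the background percentile, with replicate 4 under its own. Dll1, a Delta-like ligand, was at 6.58 to 7.33 on the SKP arrays and 7.61 to 8.45 on the sorted arrays, 1.76-fold lower (limma adjusted p = 0.00877). Both were highest on sorted replicate 20. Among the sorted arrays it had the highest list means of keratinocyte, fibroblast, endothelial, melanocyte, and pericyte and smooth muscle genes. Its means of dermal papilla and myeloid genes were the lowest. The part of that array's cells in the Jag2 and Dll1 values was not tested. Dll3 and Dll4 had log2 fold changes of -0.02 and 0.02 (limma adjusted p = 0.892 and 0.910). Dll1, Dll3 and Dll4 were named after their values were seen.

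The 3 Hey genes, basic helix-loop-helix repressors that are direct targets of the pathway, all were lower in SKPs, and Hey2 by far the most as measured. Hey2 was at 4.84, 5.12, 4.93 and 4.84 on SKP replicates 3, 4, 5 and 6, and at 10.25, 11.08, 10.83, 10.98 and 9.79 on sorted replicates 2, 16, 17, 18 and 20. All SKP arrays lay under the 95th percentile of the background genes, and the sorted arrays lay at least 4.67 above every SKP array, with replicates 2 and 20 the lowest of them. Its mean was 4.93 ± 0.13 in SKPs and 10.59 ± 0.55 in sorted cells, a log2 fold change of -5.65 (SE 0.25, limma adjusted p = 1.54e-07) as computed. Since the SKP level is under background, the fold is a bound: with the mean background percentile of the SKP arrays in its place, Hey2 was at least 21.9-fold lower in SKPs. Without sorted replicates 2 and 20 the log2 fold change as computed was -6.03.

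**Figure D2:**
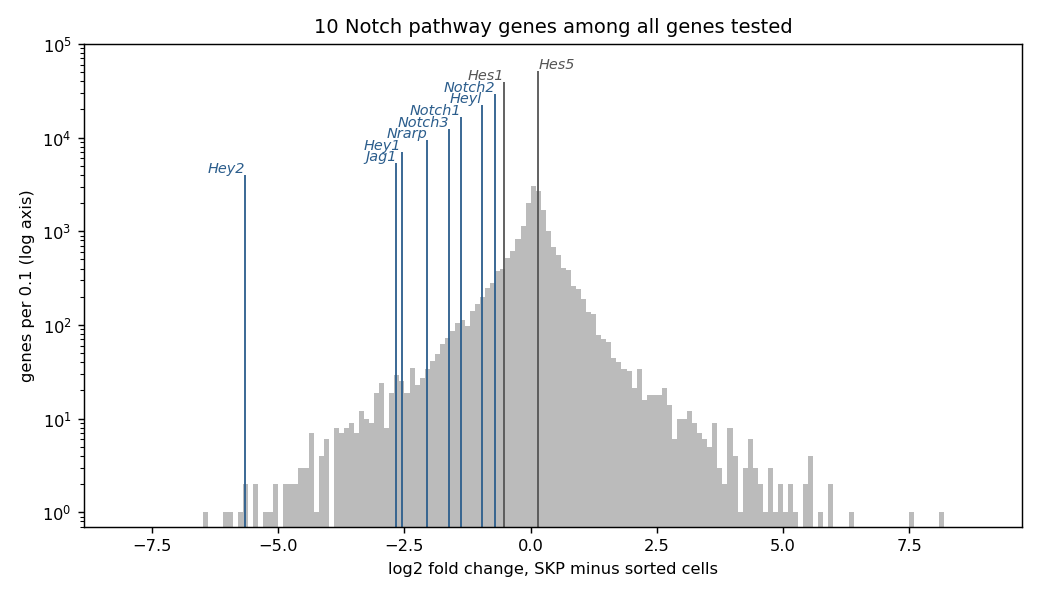
Histogram of log2 fold changes (SKP minus sorted, x axis) of all 19938 genes tested, in bins of 0.1 on a log count axis, with vertical lines at the 10 pathway members (blue where called lower, grey where not called; line heights are staggered for reading only). Hey2 is drawn at -5.65, as computed from SKP values under background, Jag1, Hey1 and Nrarp lie between -2.66 and -2.05, and Hes5 at 0.15 near the centre.

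Hey1, a paralogue of Hey2, was at 6.17, 6.51, 6.14 and 6.28 on the SKP arrays and at 8.95, 8.96, 8.67, 8.76 and 8.83 on the sorted arrays. The SKP values were close to the background percentile, with 1 of 4 arrays at or under its own, and the sorted arrays were well separated from them, by 2.16. Hey1 was 5.89-fold lower in SKPs, at 6.28 ± 0.17 against 8.83 ± 0.13 (log2 fold change -2.56, SE 0.10, limma adjusted p = 8.51e-08).

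Heyl, the remaining family member, was at 7.18, 6.87, 7.11 and 7.40 on the SKP arrays and at 8.50, 7.63, 7.85, 7.57 and 8.96 on the sorted arrays. The gap between the groups was only 0.16, and sorted replicates 2 and 20 were the highest. Its mean was 7.14 ± 0.22 in SKPs and 8.10 ± 0.61 in sorted cells, a 1.95-fold lower level (log2 fold change -0.96, SE 0.28, limma adjusted p = 0.0205). The call was lost without SKP replicate 4 (limma adjusted p = 0.0610) and without SKP replicate 5 (0.0506), and without sorted replicates 2 and 20 the log2 fold change was -0.54 (limma adjusted p = 0.00791).

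As measured, the Hey genes thus differed between the groups by unequal amounts. Because Hey2 was under background in SKPs, each array's values under its background percentile were set at that percentile for this comparison. That choice was made after seeing the data and makes the Hey2 minus Heyl difference a bound. Hey2 minus Hey1 then was -0.15 ± 0.16 in SKPs and 1.75 ± 0.58 in sorted cells, a difference of -1.91 (exact permutation p = 0.00794, adjusted p = 0.0222 over the 7 pairs), against -3.09 with the values as deposited. Hey1 was itself close to the background percentile in SKPs, so its own change may be cut short as well. This pair therefore cannot decide whether Hey2 changed more than Hey1. For Hey2 minus Heyl the difference was -3.49 (exact permutation p = 0.0159, adjusted p = 0.0222), against -4.69 as deposited. For Heyl minus Hey1 it was 1.60 with the deposited values (exact permutation p = 0.0159, adjusted p = 0.0222), and 1.51 without SKP replicate 6, where it was not called. Without sorted replicates 2 and 20 the deposited values gave differences in the same direction for these 3 pairs, each with an exact permutation adjusted p of 0.05, which did not pass. Each had the smallest exact p that 35 assignments allow (0.0286), so this does not show that the differences depend on those replicates. Endothelial genes are given beside this, since Hey1 and Hey2 are also active in endothelium. Of 14 measured, 3 were lower and 0 higher (16.9% and 20.2% over all genes), with a median log2 fold change of -0.08. Their list mean was 6.36 to 6.65 on the SKP arrays and 6.52 to 7.50 on the sorted arrays, highest on sorted replicate 20. The part of endothelial cells in the Hey1 and Hey2 values was not tested.

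The promoters of Hey2 and Hes5 are shown because of the members with a promoter in the table these are the ones that hold the RBPJ core letters searched for, and because Hey2 had the largest fold change of the 10 members while Hes5 was not called. Of the 10 members, 7 had a promoter in the RefSeq table (GRCm38.p6), a window of 300 bases that runs from 250 before to 50 after the gene start. The windows were searched on both strands for TGGGAA, the core of the RBPJ motif (TTCCCA on the other strand), and for the E-box CACGTG, whose letters are the same on both strands; the 2 motifs do not overlap here. The Hey2 window is chr10:30842734-30843033 (minus strand) and the Hes5 window chr4:154960673-154960972 (plus strand), written 5′ to 3′ along the gene with TGGGAA or TTCCCA in capitals.
Hey2: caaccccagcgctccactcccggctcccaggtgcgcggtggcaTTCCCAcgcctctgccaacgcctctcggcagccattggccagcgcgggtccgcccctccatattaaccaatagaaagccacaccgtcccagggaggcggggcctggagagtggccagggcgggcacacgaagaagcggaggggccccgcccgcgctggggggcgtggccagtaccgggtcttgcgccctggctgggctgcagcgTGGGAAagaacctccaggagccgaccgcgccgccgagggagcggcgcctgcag
Hes5: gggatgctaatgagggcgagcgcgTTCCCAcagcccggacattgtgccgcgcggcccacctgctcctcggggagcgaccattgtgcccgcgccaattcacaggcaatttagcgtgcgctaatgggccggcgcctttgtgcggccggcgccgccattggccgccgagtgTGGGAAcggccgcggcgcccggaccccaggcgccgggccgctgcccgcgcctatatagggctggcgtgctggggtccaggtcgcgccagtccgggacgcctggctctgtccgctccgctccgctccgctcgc
The Hey2 window held 2 matches, whose first bases lie 207 and 3 bases before the gene start, and the Hes5 window 2 matches, at 226 and 82 bases before it. In each gene the match farther from the start was on the other strand. Of 32851 promoter windows in the table, 25.6% held at least 1 such match and 3.79% at least 2. The windows of Notch1, Notch2, Notch3, Jag1 and Nrarp held none, and CACGTG was found in the Nrarp window only (1 match, 108 bases before the start; 7.15% of all windows held 1 or more).

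The Hes targets were not called. Hes1, a repressor that oscillates in many precursor cells and also responds to other signals, was at 9.31, 9.25, 9.30 and 8.997 on the SKP arrays and at 10.07, 9.56, 9.41, 9.26 and 10.38 on the sorted arrays. The groups overlapped, with sorted replicate 18 inside the SKP range and sorted replicates 2 and 20 the highest. Its mean was 9.22 ± 0.15 in SKPs and 9.74 ± 0.47 in sorted cells (log2 fold change -0.52, 95% confidence interval -1.01 to -0.04, limma adjusted p = 0.0887). It passed the threshold after quantile normalization (limma adjusted p = 0.0472) and without sorted replicate 18 (0.0398), and without sorted replicates 2 and 20 the log2 fold change was -0.19.

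Hes5, best known as a target in neural precursors, was at 7.80, 7.39, 7.28 and 7.83 on the SKP arrays and at 7.43, 7.34, 7.28, 7.49 and 7.57 on the sorted arrays. The groups overlapped along the whole sorted range, with SKP replicates 3 and 6 the highest. The log2 fold change was 0.15 (95% confidence interval -0.14 to 0.45, limma adjusted p = 0.394), so a difference beyond 1.36-fold lay outside the interval. With array weights it was called higher (log2 fold change 0.33, limma adjusted p = 0.0224). Hes5 minus Hes1 differed by 0.68 between the groups (exact permutation p = 0.0476, adjusted p = 0.0556 over the 7 pairs), which did not pass; it was called without sorted replicate 18 (0.81, adjusted p = 0.0333). Of the 5 other Hes family genes measured, 0 were called in either direction by limma (0 lower and 1 higher at an unadjusted p under 0.05). Hes2, Hes3 and Helt, named after their values were seen, were at or under the background percentile on 8, 7 and 9 arrays. These genes could therefore show little difference.

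Nrarp, a small ankyrin-repeat protein that is induced by Notch and promotes loss of the active intracellular domain, was lower in SKPs. It was at 6.54, 6.04, 6.22 and 6.17 on the SKP arrays and at 8.15, 8.16, 8.17, 7.77 and 9.24 on the sorted arrays. The SKP values were close to the background percentile (1 of 4 at or under its own), and sorted replicate 20 stood above the other sorted arrays. The mean was 6.24 ± 0.21 in SKPs and 8.30 ± 0.55 in sorted cells, a 4.15-fold lower level (log2 fold change -2.05, SE 0.26, limma adjusted p = 0.000149), and -1.79 without sorted replicates 2 and 20.

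The members did not vary in the same way among the sorted arrays. On sorted replicate 20 Nrarp stood 0.94, Heyl 0.86, Hes1 0.64 and Notch3 0.51 above the mean of the 5 sorted arrays, whereas Hey2 stood at -0.79 and Jag1 at -0.22. Replicate 2 was shifted the same way for Heyl (0.40), Hes1 (0.34) and Hey2 (-0.34), but not for Nrarp (-0.15), Notch3 (-0.10) or Jag1 (0.07). Notch1 stood at -0.38 on replicate 2 and at 0.29 on replicate 20. Notch2 stayed between -0.045 and 0.043 of its mean on every sorted array. The list mean of keratinocyte genes was 1.62 above its sorted mean on replicate 20, that of fibroblast genes 0.82 and that of endothelial genes 0.65, while that of dermal papilla genes stood at -1.02 and that of hair matrix and shaft genes at -1.24. On replicate 20, then, Hey2 lay on the same side as the dermal papilla list, and Heyl, Hes1 and Nrarp on that of the keratinocyte and fibroblast lists. The part of other cells in these values was not tested.

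**Figure D3:**
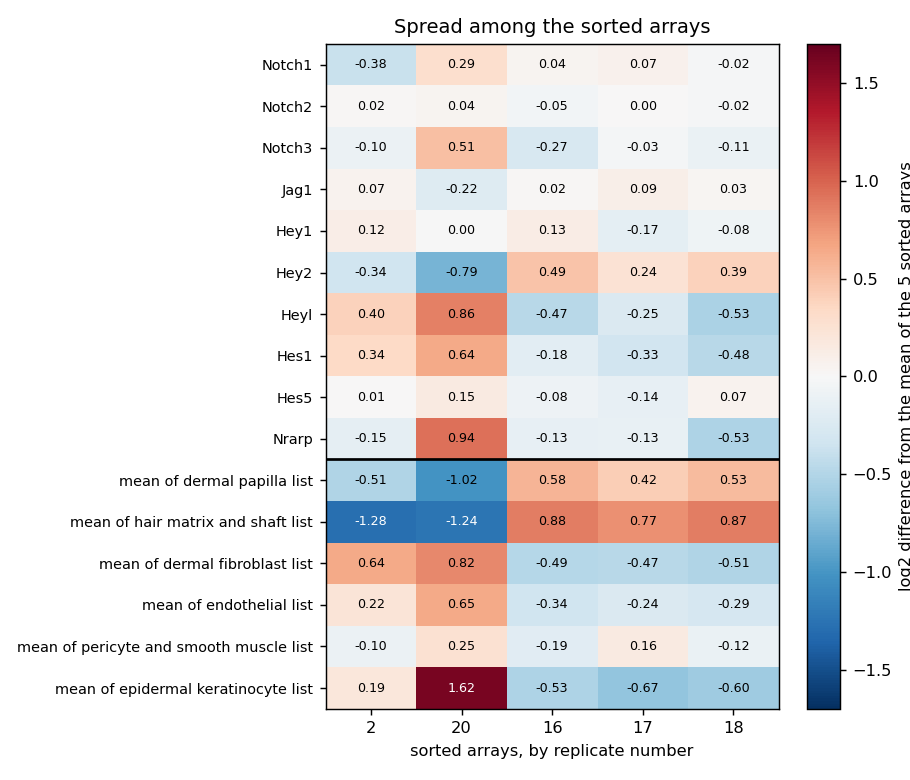
Log2 difference of each pathway member (upper rows) and of the mean of each marker list (lower rows) from its own mean over the 5 sorted arrays, by replicate number (columns). Replicates 2 and 20 are above the mean for Heyl and Hes1 and below it for Hey2 and for the dermal papilla and hair matrix lists. Differences run from -1.28 (hair matrix and shaft list on replicate 2) to 1.62 (keratinocyte list on replicate 20).

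Likeness of pattern was measured as the root mean square difference over the 9 arrays after each gene was centred on its own mean, among 14071 genes whose mean was not under the background percentile (6.09). Since the groups differ so widely, this measure mostly reflects the size of the group difference, and no shared function is implied. Nearest to Hey2 were Ptch1 (0.23), the Hedgehog receptor, Corin (0.34), a protease of the dermal papilla, and Wif1 (0.37), a Wnt inhibitor. Jag1 and Hey1 were among the 3 nearest to each other (0.15). Robo2, a receptor for Slit guidance proteins, was near both (0.14 each), with Socs3 (0.17), an inhibitor of cytokine signalling, also near Jag1 and the stress-induced Gadd45b (0.13) also near Hey1. Notch1 was nearest to Scarna17 (0.10), Arrdc4 (0.10) and Stim1 (0.10), Notch3 to Lrp4 (0.15), Chrdl1 (0.16) and Myom1 (0.17), and Nrarp to Tiam1 (0.15), Pmel (0.16) and F11r (0.18).

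Beyond the members, 60 of 64 listed genes of the pathway were measured, of which 20 were lower in SKPs, 8 higher and 32 not called, with a median log2 fold change of -0.10. Over all genes 16.9% were lower and 20.2% higher. Without sorted replicates 2 and 20, 24 were lower and 13 higher, while calls over all genes rose from 7386 to 9264. The list of genes was set with earlier results of these data known.

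**Figure D4:**
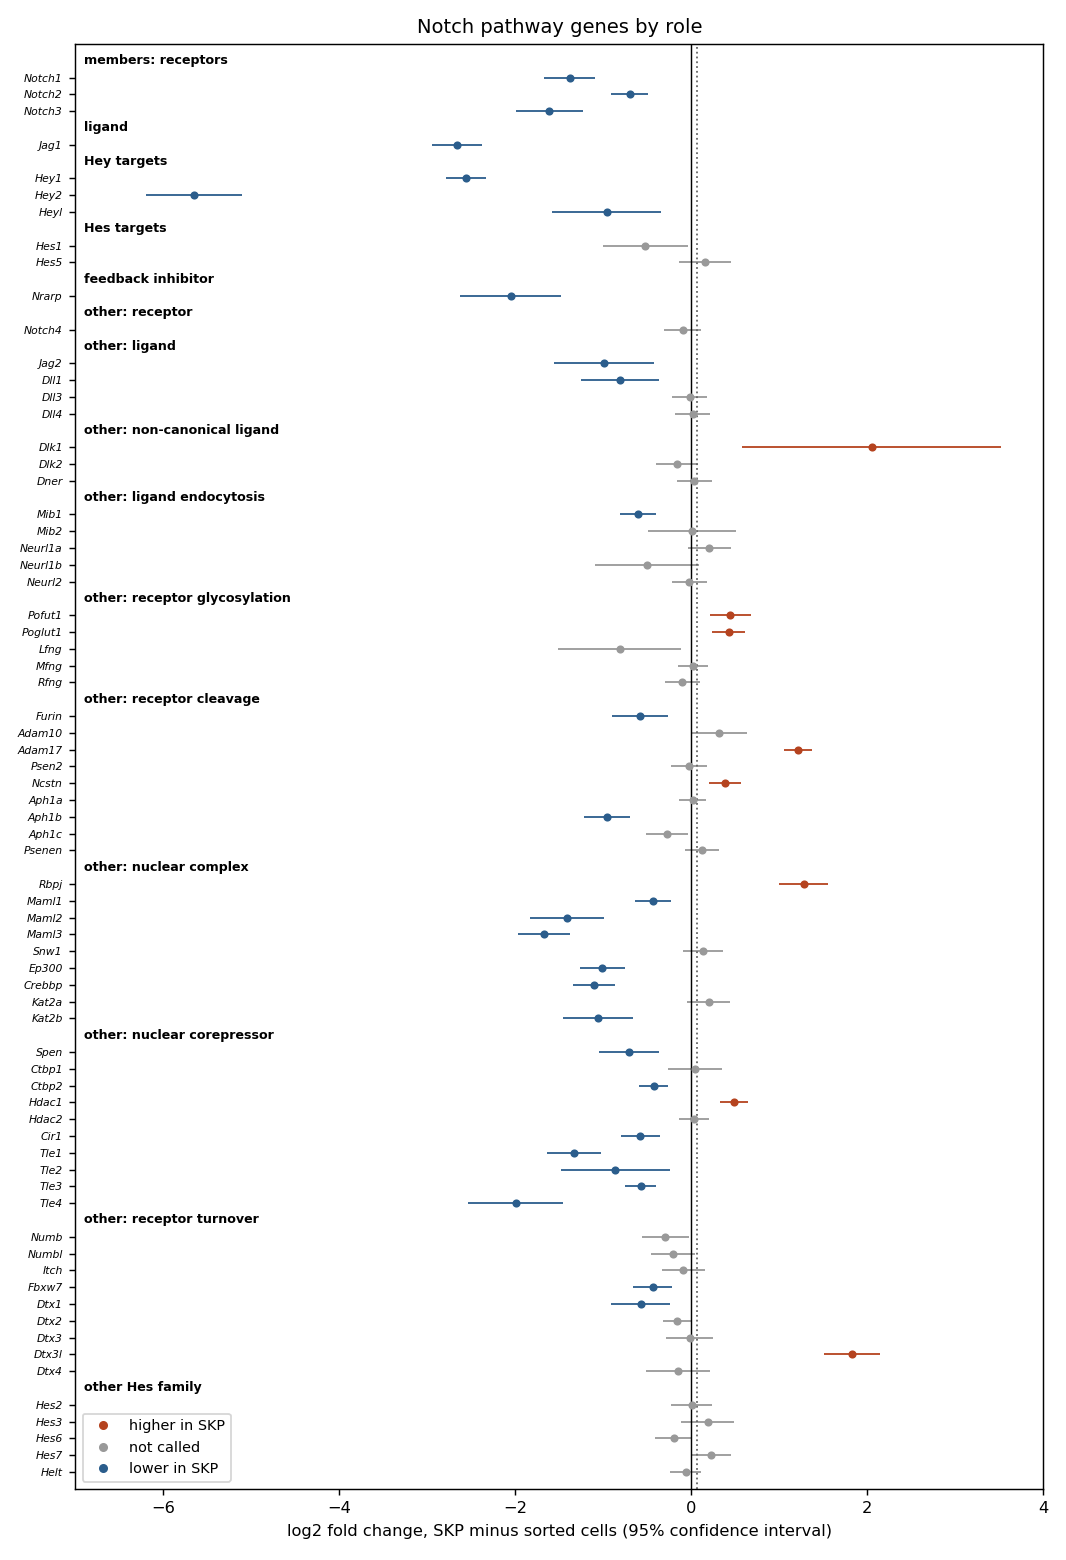
Log2 fold change (SKP minus sorted cells) with its 95% confidence interval for the 10 members and the 60 other pathway genes, grouped by role; red marks genes called higher in SKPs, blue lower and grey not called, and the dotted line is the median of all genes (0.07). Of the 9 nuclear complex genes 6 are blue and Rbpj is red; Dlk1 has the widest interval among the genes called higher.

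In the nuclear complex 6 of 9 genes were lower and 1, Rbpj, higher, against 16.9% and 20.2% of all genes. Rbpj, which recruits the Notch intracellular domain to DNA, was at 10.63, 10.52, 11.05 and 10.86 on the SKP arrays and at 9.71, 9.34, 9.48, 9.35 and 9.57 on the sorted arrays. The groups did not overlap, and Rbpj was 2.42-fold higher in SKPs (log2 fold change 1.28, SE 0.13, limma adjusted p = 3.20e-05). A further probe set annotated to Rbpj had means of 5.49 in SKPs and 5.46 in sorted cells, both under the background percentile, and a log2 fold change of 0.04 (limma adjusted p = 0.677 over all probe sets), so the difference rests on 1 probe set and was 0.66 when both were averaged.

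The Mastermind-like coactivators, by contrast, were all lower. Maml3 was at 7.22, 7.16, 7.0 and 7.21 on the SKP arrays and at 8.36, 8.97, 8.97, 8.92 and 8.89 on the sorted arrays, 3.20-fold lower in SKPs (limma adjusted p = 7.16e-06). Maml2 was 2.67-fold lower (limma adjusted p = 0.000239, or a log2 fold change of -0.61 on its other probe set) and Maml1 1.35-fold lower (0.00420). The acetyltransferases Ep300 and Crebbp, which act with them but serve many other factors, were 2.02-fold and 2.15-fold lower (limma adjusted p = 7.78e-05 and 2.63e-05). Snw1 and Kat2a, cofactors that were not called, had log2 fold changes of 0.13 and 0.20 (limma adjusted p = 0.342 and 0.196). Maml1, Maml2, Ep300, Crebbp, Snw1 and Kat2a were named after their values were seen.

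Among nuclear corepressors 7 of 10 were lower and 1 higher, against 16.9% and 20.2% of all genes. Tle4, a Groucho corepressor that Hes and Hey proteins can recruit, was at 7.40, 7.74, 7.65 and 7.26 on the SKP arrays and at 9.13, 9.99, 9.73, 9.89 and 8.80 on the sorted arrays, 3.99-fold lower in SKPs (limma adjusted p = 0.000126). Like Hey2 it was lowest among the sorted arrays on replicates 2 and 20. Hdac1, a histone deacetylase of general use, was 1.40-fold higher (limma adjusted p = 0.000426).

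Among genes of receptor processing, 2 of 9 in the cleavage group were lower and 2 higher. That was near the shares over all genes, 16.9% lower and 20.2% higher. Adam17, a protease that can cut Notch and sheds many other proteins, was at 11.38, 11.37, 11.50 and 11.41 on the SKP arrays and at 10.33, 10.20, 10.21, 10.18 and 10.09 on the sorted arrays, 2.31-fold higher (limma adjusted p = 1.30e-06). Aph1b, a gamma-secretase subunit, was 1.94-fold lower (limma adjusted p = 0.000145). In the glycosylation group 2 of 5 were higher and 0 lower (2 and 1 at an unadjusted p under 0.05), led by Pofut1, which adds fucose to the receptor (1.36-fold, limma adjusted p = 0.00716).

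In ligand endocytosis 1 of 5 was lower and 0 higher (1 and 0 at an unadjusted p under 0.05): Mib1, the ubiquitin ligase that activates ligands (1.52-fold lower, limma adjusted p = 0.000582). In receptor turnover 2 of 9 were lower and 1 higher. The shares over all genes, for both groups, were 16.9% lower and 20.2% higher. Dtx3l, a ubiquitin ligase of the Deltex family that is also interferon-induced, was at 8.67, 8.999, 9.24 and 8.85 on the SKP arrays and at 7.06, 6.997, 7.10, 6.93 and 7.49 on the sorted arrays, 3.54-fold higher (limma adjusted p = 7.08e-06). Dtx1, a family member and known Notch target, was 1.49-fold lower (limma adjusted p = 0.0125).

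The SKP arrays also carried genes of myeloid and other immune cells. Of 13 such genes 10 were higher in SKPs and 0 lower, against 20.2% and 16.9% of all genes. The lysozyme gene Lyz2 led the higher ones (log2 fold change 4.61, limma adjusted p = 3.32e-05). The list mean of the 13 genes was 7.40, 6.87, 8.28 and 7.71 on SKP replicates 3, 4, 5 and 6, against 5.95 to 6.24 on the sorted arrays. Ptprc, Aif1, Itgam and Cd74 were at or under the background percentile on every sorted array. Cd74 was so on every SKP array as well, and neither Cd74 nor Aif1 was called (limma adjusted p = 0.204 and 0.0627). SKP replicate 5, with the highest mean of that list, was also the SKP array with the highest Rbpj, Dtx3l, Adam17, Poglut1, Ncstn, Hdac1 and Notch2. It had the lowest Notch1, Notch3, Jag1, Hey1 and Hes5 of the members, and also the lowest Pofut1 and Dlk1 of the genes called higher. The part of these cells in those results was not tested.

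Dlk1, an imprinted Delta-like protein that lacks the domain by which canonical ligands bind Notch, was at 10.01, 11.16, 9.06 and 9.80 on the SKP arrays and at 8.33, 7.08, 7.13, 7.08 and 10.16 on the sorted arrays. Sorted replicate 20 lay inside the SKP range. It was 4.15-fold higher in SKPs, at 10.01 ± 0.87 against 7.96 ± 1.34 (limma adjusted p = 0.0331), and the call was lost on leaving out SKP replicate 3, 4 or 6 or sorted replicate 16, 17 or 18 (limma adjusted p up to 0.0977). Without sorted replicate 20 the log2 fold change was 2.60 (limma adjusted p = 0.00117), and without both replicates 2 and 20 it was 2.91 (0.000339), against 2.05 over all arrays. Notch4, the remaining receptor, had a log2 fold change of -0.10 (limma adjusted p = 0.465) and was named after its values were seen.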

How the data were processed

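RNA of 4 SKP and 5 sorted preparations was hybridised to Affymetrix Mouse Gene 1.0 ST arrays. The authors deposited 1 log2 value per probe set and array; RMA, Affymetrix Expression Console and limma are named per the submitters' processing notes, without versions. RMA adjusts background, normalizes quantiles between arrays and summarises probes, so values share a distribution. No detection p-values were used, and the number of arrays limits the precision. Of 35556 probe sets, 21789 had exactly 1 symbol in the platform annotation. These gave 19938 genes, each represented by its probe set with the highest mean over the 9 arrays.

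SKP minus sorted was tested with limma 3.58.1 in R 4.3.3 (lmFit and eBayes, two-sided), with Benjamini-Hochberg adjustment over all genes and a threshold of 0.05. Pairs of paralogues were compared by an exact permutation test over arrays. The limma fit and the exact test were tested on simulated data. The alternatives were quantile normalization, median centring, omission of genes with low means, a mean over probe sets, every probe set on its own, array weights, trended robust eBayes, a threshold of 0.01, omission of arrays and, for the pairs, a floor at the background percentile. Figures were drawn with matplotlib 3.10.9.

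Members and lists were chosen with earlier results of these data known. Named genes are the members, the called gene with the largest change in each direction per pathway role and marker list, and the 3 genes nearest in pattern to members that changed at least 2-fold without overlap. Of the marker lists, only genes beside a result of a member are given. The hair matrix, melanocyte, Schwann cell, myeloid and fibroblast lists held 10 lower and 0 higher of 14, 8 and 1 of 10, 8 and 0 of 8, 0 and 10 of 13, and 1 and 6 of 12, and the dermal papilla and keratinocyte lists 15 and 0 of 16 and 13 and 0 of 14. Over all genes 16.9% were called lower and 20.2% higher. No protein sequences were used here.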

Additional observations from a re-analysis of the deposited data

Results flagged for a closer look

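2 values stood apart from the other arrays of their group by Dixon's test, both on sorted replicate 20. Jag1 was at 10.62 there, against 10.86 to 10.93 on the other 4 sorted arrays, and Nrarp was at 9.24, against 7.77 to 8.17. In all, 20 groups of values were examined, and chance flags about 1 in 20. Jag1 on that array was still above every SKP array, which reached 8.55. Without sorted replicate 20 the log2 fold change was -2.71 for Jag1 and -1.82 for Nrarp.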

How the results depend on the processing

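The direction of all 10 members was the same under all 18 alternatives, and 7 of them kept their side of the threshold under each. The exceptions were Heyl, which also lost its call at a threshold of 0.01, Hes1 and Hes5, as given above. The count of members called lower ran between 7 and 9. The count of members called higher was 1 with array weights and 0 otherwise. With array weights 15 other pathway genes were called higher and 23 lower, and 13 and 24 without both sorted replicates 2 and 20, against 8 and 20 as deposited; array weights thus took the share called higher to 39.5%, against 28.6%. All genes called numbered 7386 as deposited and 5166 at a threshold of 0.01. They numbered 10650 with array weights and 9264 without both sorted replicates 2 and 20. Without both sorted replicates the pair differences were -0.73 (Notch1 minus Notch2), -0.80 (Notch3 minus Notch2), -3.51 (Hey2 minus Hey1), -5.49 (Hey2 minus Heyl) and 1.98 (Heyl minus Hey1), with exact permutation adjusted p between 0.05 and 0.08. Of these pairs Notch3 minus Notch2 had an unadjusted p of 0.0571 and the others 0.0286, the smallest that 35 assignments allow. For those others the lost call does not show dependence on the 2 arrays. Leaving out 1 array at a time gave 1.45 to 1.81 for Heyl minus Hey1, which was not called without SKP replicate 6 (1.51), and 0.52 to 0.81 for Hes5 minus Hes1, which was called without sorted replicate 18 (0.81, exact permutation adjusted p = 0.0333). The cause of the other changes was not tested. With values under background set at the percentile, an alternative chosen after seeing the data, no pair's call changed. No paired analysis was possible because the 2 groups share no replicate number. Levels near background limit the folds of Hey2, Hey1, Nrarp and Jag2.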
